A study of Mus musculus with 8 samples.

Results

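The solute carrier (Slc) genes were taken as all rows of the count table whose symbol starts with Slc and a digit, and in which at least 10 cells held a unique molecular identifier (UMI). Of 198 rows with such a symbol, 169 met this rule, among 9919 genes of the table's 10970 that did so. They belong to 42 numbered subfamilies, of which Slc25 with 29 members, Slc35 with 18 and Slc39 with 11 were the largest. Symbols were not checked against function, so Slc9a3r1, a scaffold protein of the plasma membrane and no transporter, counts as a member.

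The libraries were made by SCRB-seq from neutrophils picked singly into wells, where primers give every cell a barcode and every captured transcript a UMI, so that amplified copies are counted once. Donors were C57BL/6J male mice of 7 to 12 weeks, injected intraperitoneally with PBS or with LPS at 0.5 mg/kg, and cells were taken from peripheral blood (PB) or bone marrow (BM) after negative enrichment with a neutrophil kit. The labels place PBS at 0 h and LPS at 4 h, whereas the methods describe both at 4 h. The 4 groups (PB PBS, PB LPS, BM PBS, BM LPS) hold 2 labelled samples each, all from batch 7 with 711 cells, and a further 710 cells of batch 6 on 8 plates carry a group in their names but match no labelled sample. In batch 6 the marrow control names hold more numbered sets than the plates counted, so some sets were summed as a single plate.

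Solute carriers move sugars, amino acids, ions, metals, nucleotides and metabolites across the plasma membrane and the membranes of organelles, and are numbered by sequence family. Neutrophils draw most of their energy from glycolysis, so the glucose carriers of Slc2 and the lactate exporters of Slc16 serve their main fuel path. Metal carriers such as ferroportin (Slc40a1) and Nramp1 (Slc11a1) decide how much iron a phagocyte keeps from microbes, and most carriers of Slc25 sit in the inner mitochondrial membrane.

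Values are UMIs summed over the cells of a plate and scaled to CPM, which is proportional to the share of a plate's UMIs, with TMM factors, which correct for a few very abundant genes. Plates held 83 to 95 cells and 3240559 to 12020616 UMIs. Plates shared a set of 95 well barcodes, and all 1421 cell columns had distinct names. Neutrophil markers (8 of 8 in the table) summed to 120628 to 342201 CPM on every plate, lowest on the PB PBS plates. Markers of 5 other cell types passed the limit for a cell in 8 to 19 cells of each PB PBS plate, which held 7.79 to 27.5% of its UMIs (the limit being 0.5% of a cell's UMIs), against 0 to 3 cells on each other plate. Platelet markers (5 of 5 in the table) summed to 295 to 2827 CPM on the PB PBS plates and to at most 128 CPM elsewhere, and the T or NK cell markers (7 of 8 in the table) to 264 to 1013 CPM against at most 43.6 CPM. Hepatocyte markers (8 of 8 in the table) summed to 1633 and 2566 CPM in the PB PBS samples and 929 and 962 CPM in the PB LPS samples of batch 7, and to at most 1.91 CPM on the blood plates of batch 6. B cell markers (5 of 6 in the table) summed to 135 to 689 CPM in PB PBS, 41.7 to 370 CPM in PB LPS and at most 22.4 CPM in marrow. The marrow plates held at most 100 CPM of the hepatocyte markers. Monocyte or macrophage markers (6 of 8 in the table) summed to 203 to 681 CPM in PB PBS, 814 to 1386 CPM in PB LPS and 669 to 1135 CPM in marrow, with no overlap between PB PBS and PB LPS and a slight one between PB PBS and BM PBS. Neutrophil precursor markers (5 of 6 in the table) summed to 55.9 to 128 CPM in BM LPS, 5.95 to 94.8 CPM in BM PBS, 8.63 to 54.6 CPM in PB PBS and 2.90 to 10.9 CPM in PB LPS. Cells with markers of these 2 lists were not left out. The part of such RNA in the differences was not tested, beyond leaving out the cells past the limit. Replicate samples correlated across genes with r of 0.714 to 0.803, and the scaling bore on blood most: between PB LPS and PB PBS, genes had a median log2 fold change of -0.11 under TMM scaling and of -1.02 when only library size was used. Fewer cells of a type and less RNA per cell cannot be told apart in such sums.

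The carriers together took up a like share of the TMM-scaled counts in each group, 4014 to 5672 CPM over the 16 plates. Their share of the raw UMIs was lowest in PB LPS, at 0.264 to 0.394%, and highest in PB PBS, at 0.635 to 0.803%. Expression was concentrated in few genes: the 10 highest held 48.8% of all carrier counts in the 8 samples, 15 carriers had a mean of at least 100 CPM, and 127 had less than 20 CPM. By UMIs, with no scaling for transcript length, the order was Slc2a3 (515 CPM), the taurine carrier Slc6a6 (317 CPM), Slc40a1 (292 CPM), the lactate exporter Slc16a3 (204 CPM), Slc2a6 (201 CPM), the neutral amino acid carrier Slc38a2 (191 CPM), Slc35a5 (177 CPM), Slc9a3r1 (171 CPM), the adenine nucleotide carrier Slc25a5 (169 CPM) and Slc11a1 (145 CPM). Many others rested on few cells, since a median of 78 of the 1421 cells held any UMI of a carrier. The test over the 8 samples kept 135 carriers, and the 34 left out had means of at most 5.30 CPM.

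**Figure D1:**
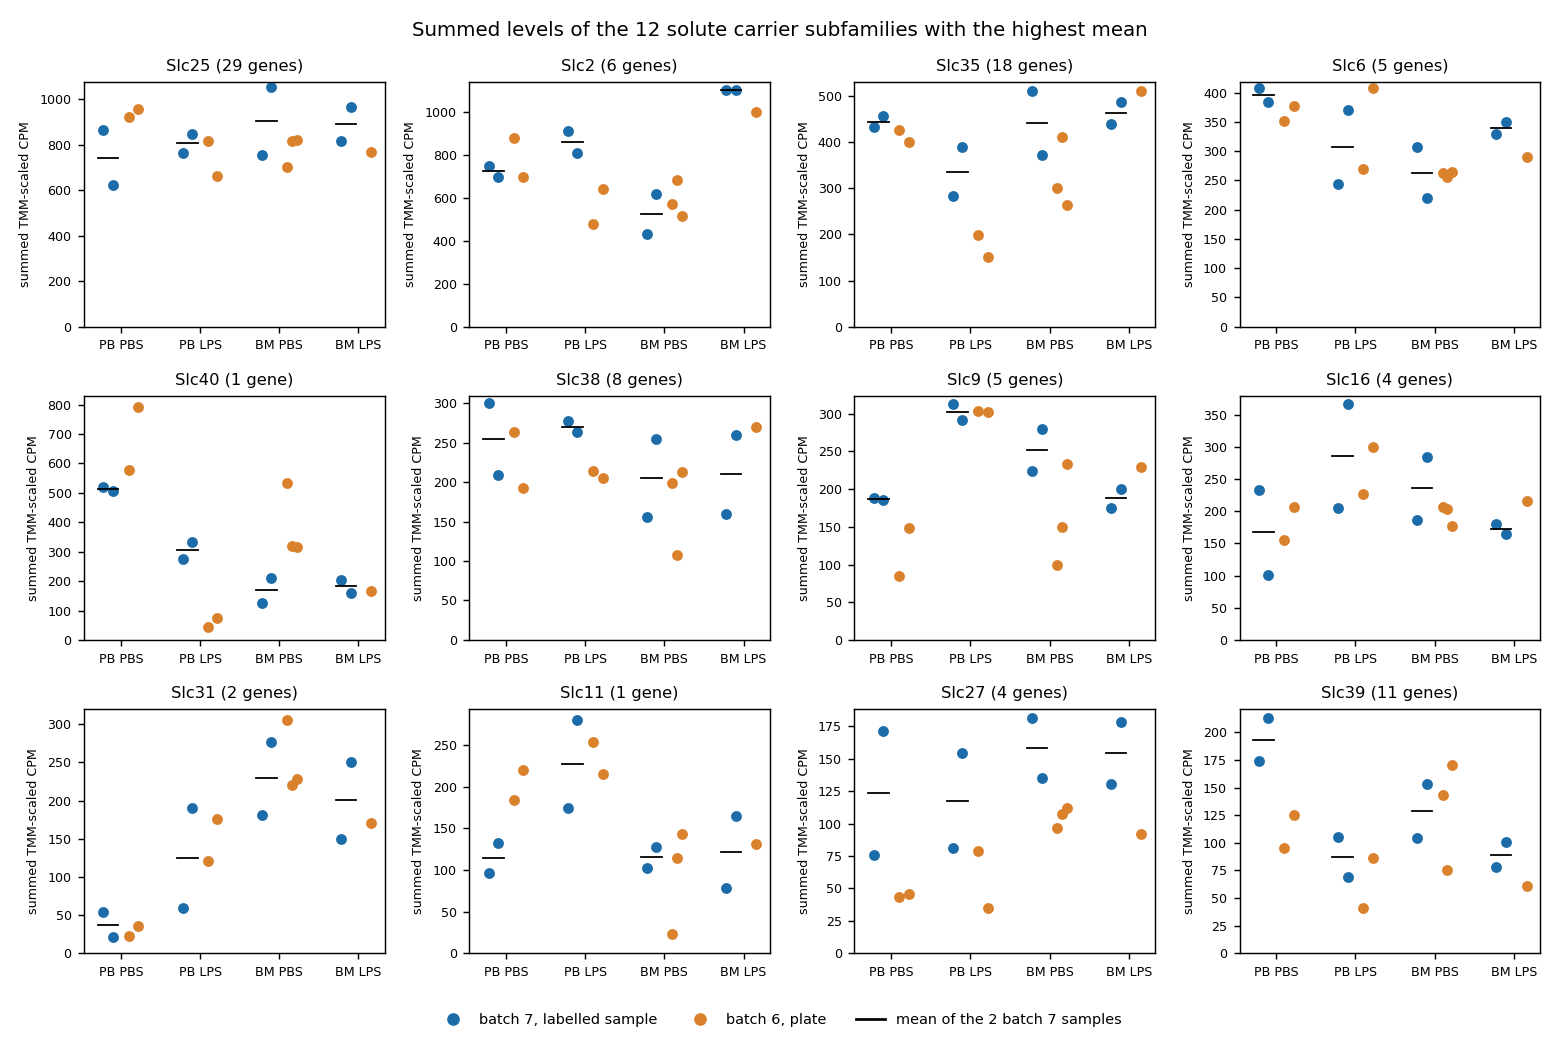
Summed TMM-scaled CPM (vertical axis) of the 12 Slc subfamilies with the highest mean over the groups, 1 point a plate (blue, labelled samples of batch 7, orange, plates of batch 6), with a line at the mean of the 2 batch 7 samples. Slc2 lay highest in BM LPS, at 1107, 1107 and 1002 CPM, while Slc40 and Slc31 separated PB PBS from the other groups in batch 7.

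By subfamily, the summed Slc2 level was 525 CPM ± 133 (SD, n = 2) in BM PBS, 1107 ± 0.144 in BM LPS, 726 ± 36.7 in PB PBS and 862 ± 72.5 in PB LPS. Both batches held the order of BM LPS above BM PBS without overlap, whereas PB LPS exceeded PB PBS in batch 7 and lay below it in batch 6. The Slc25 sum ranged from 743 ± 171 CPM in PB PBS to 905 ± 210 CPM in BM PBS, a gap smaller than the spread within BM PBS. Slc35, the carriers of nucleotide sugars into the Golgi and their relatives, stood at 337 ± 74.7 CPM in PB LPS and at 441 to 463 CPM in the 3 other groups. In the comparison of PB LPS with PB PBS, the median log2 fold change was -1.27 over the 16 tested members of Slc35, -2.32 over the 9 of the zinc carriers of Slc39 and 0.22 over the 24 of Slc25, beside -0.11 over all genes tested. These medians give members with few counts the same weight as others. The Slc39 sum was 193 CPM ± 27.4 (SD, n = 2) in PB PBS and 87.2 ± 25.2 in PB LPS. In both batches, 1 of the 11 Slc39 members and 2 of the 18 of Slc35 were lower in PB LPS without overlap, and 0 were higher.

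Comparisons were made in 2 ways. The first was edgeR's quasi-likelihood test over the 8 labelled samples. The second asked, with no test, whether all plates of 1 group lay above all of the other in batch 7 and again, in the same direction, in batch 6. Because 2 samples a group leave the first with little reach, the same model over all 16 plates with batch as a term is given beside it. Its p-values measure the spread between plates, whose relation to animals the labels do not give.

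For LPS in blood, 0 of the 135 carriers passed over the 8 samples, with 3.94% of all genes past the threshold. At an unadjusted p under 0.05 there were 17 carriers beside 16.8% of all genes. DESeq2 called 14 of the 105 carriers it gave an adjusted p, beside 15.5% of all genes. Over the 16 plates 12 of 137 passed, 5 higher and 7 lower in PB LPS, where 9.97% of all genes did. Calls lost without single plates are named with each carrier below. Of the 169, 10 were higher without overlap in both batches and 8 lower, beside 8.83% and 4.7% of all genes, so that the carriers' shares lie near or below those of all genes. The scaling set the balance: with library size alone, 2 were higher and 22 lower, beside 3.67% and 15.1% of all genes. Of the 10 higher on the TMM scale, Slc15a3 and Slc25a22 also separated with library size alone and the 8 others did not. All 8 lower ones did.

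For LPS in marrow, 0 carriers passed over the 8 samples, while DESeq2 called 5 of 105, beside 2.9% of all genes. In edgeR 10 carriers were below 0.05 before adjustment, beside 8.07% of all genes. Of all genes, 0.0708% passed. Over the 16 plates 1 of 137 passed beside 0.418% of all genes. Without overlap in both batches, 6 were higher and 1 was lower, beside 3.64% and 2.85% of all genes. With library size alone 8 were higher and 0 lower, beside 4.71% and 2.06%.

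Between resting neutrophils of blood and marrow, 1 carrier passed over the 8 samples and 7 over the 16 plates, where 2.61% and 7.73% of all genes did. Of these 7, Slc38a1 and Slc6a4 met the filter on low counts only through PB PBS. Without overlap, 6 carriers were higher in PB PBS and 6 lower, beside 4.45% and 5.32% of all genes. With library size alone 16 were higher and 4 lower, beside 9.88% and 2.79%. Between both LPS groups, 2 passed over the 8 samples and 7 over the 16 plates, beside 3.73% and 5.87% of all genes. Here 11 were higher in PB LPS without overlap and 8 lower, with backgrounds of 8.71% and 5.57%. With library size alone the balance turned to 4 higher and 13 lower, beside 4.85% and 11.8% of all genes. Of the 11 higher, Slc15a3, Slc25a22, Slc2a6 and Slc7a11 separated under both scalings. The difference of the LPS effects, blood minus marrow, passed for 1 carrier over the 8 samples and for 4 over the 16 plates, beside 1.5% and 3.35% of all genes. Most of these 5 comparisons share samples with each other. DESeq2 called 12 of 120 carriers for PB PBS against BM PBS, 13 of 117 for PB LPS against BM LPS and 3 of 120 for the difference of LPS effects, beside 13.2%, 13.1% and 6.8% of all genes.

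**Figure D2:**
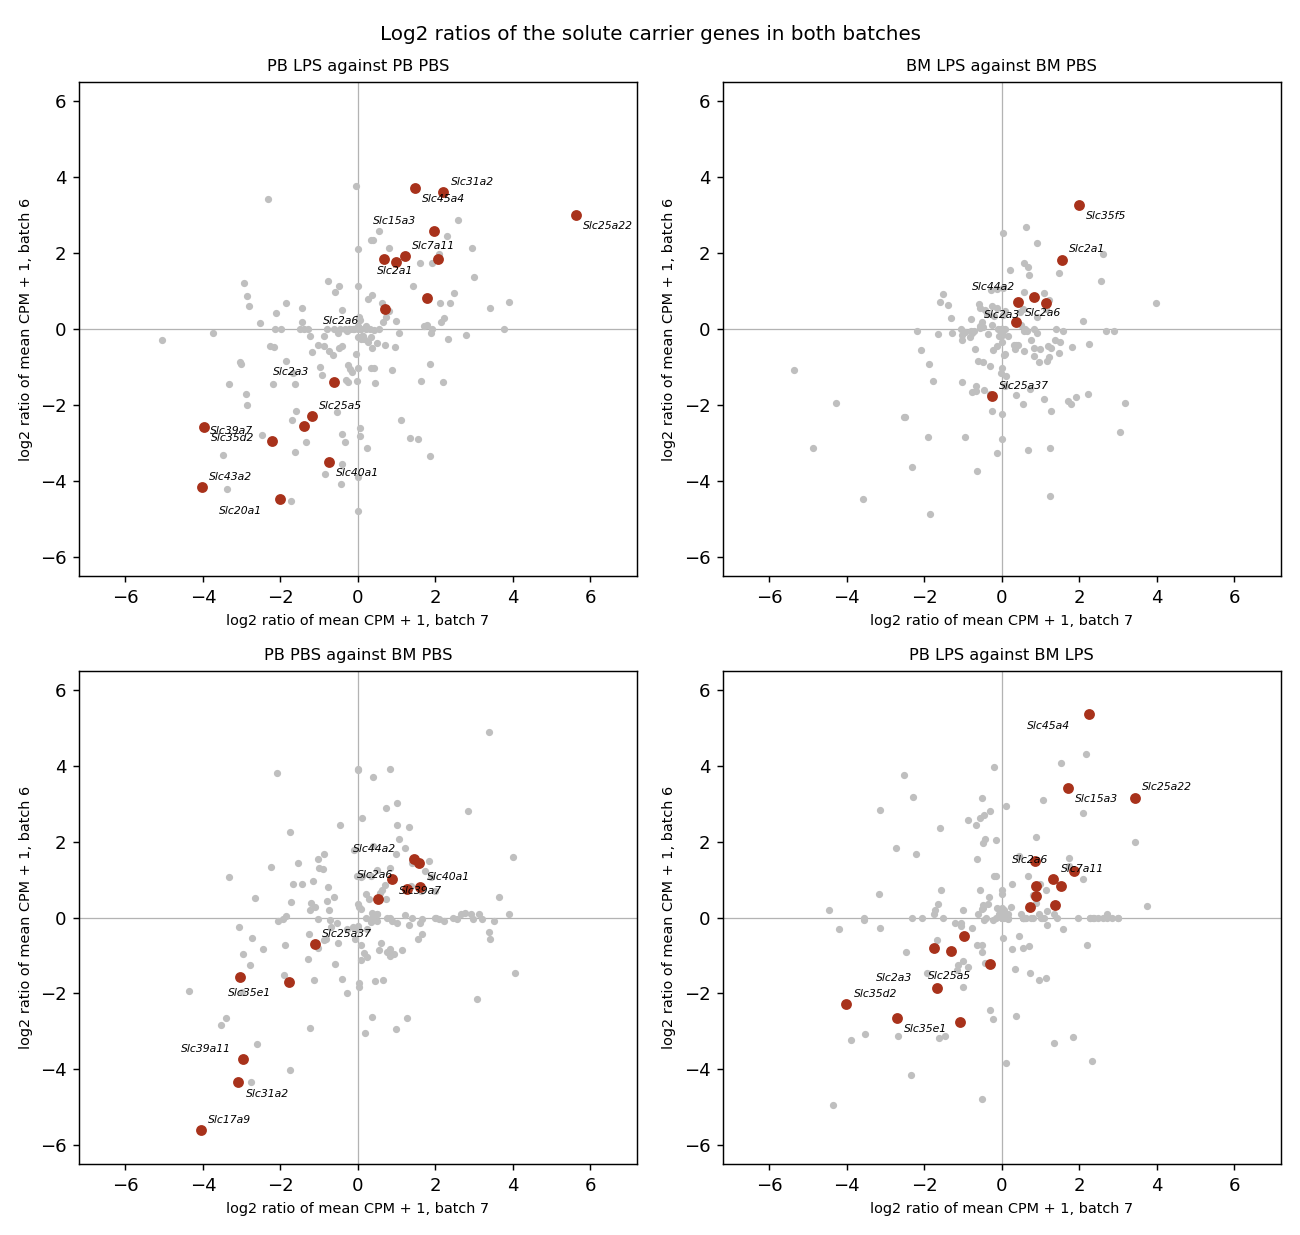
Log2 ratio of mean TMM-scaled CPM + 1 in batch 7 (horizontal) against batch 6 (vertical) for the 169 carriers, 1 panel a comparison, with red points for those whose groups did not overlap in both batches and the names of some of them. The red points number 18 for PB LPS against PB PBS, 7 for BM LPS against BM PBS, 12 for PB PBS against BM PBS and 19 for PB LPS against BM LPS.

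Slc2a3, which encodes the high-affinity glucose transporter GLUT3 and lies at chr6:122677827-122751658 of mm9 on the minus strand, was the most abundant carrier and the one whose LPS and PBS plates separated in both batches in both compartments with opposite directions. It measured 356.5 and 476 CPM in the BM PBS samples and 902 and 929 CPM in the BM LPS samples. It measured 428 and 450.5 CPM in PB PBS and 283 and 293 CPM in PB LPS. So marrow neutrophils held more of it after LPS and blood neutrophils less, with no overlap between the pairs of samples. On the batch 6 plates the levels were 523.5, 602 and 429.6 CPM in BM PBS, 833 CPM in BM LPS, 654 and 551 CPM in PB PBS and 239 and 217 CPM in PB LPS, with the same order and again no overlap.

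The difference of both LPS effects on Slc2a3 was a log2 difference of -1.75, SE 0.36 (adjusted p = 0.0406) over the 8 samples, and a log2 difference of -1.99, SE 0.34 (adjusted p = 0.000531) over the 16 plates. It lost its call with cells thinned to 5000 UMIs (adjusted p = 0.0732) and without any 1 of 7 samples, for which adjusted p ranged from 0.0703 to 0.212, and kept it without BM PBS replicate 2. In the model over the 16 plates it passed without each plate. After LPS, blood neutrophils held less Slc2a3 than marrow neutrophils, with a log2 difference of -1.67, SE 0.26 (adjusted p = 0.00411), and this passed without each of the 8 samples (adjusted p 0.00257 to 0.0491). The single LPS effects did not pass over the 8 samples: the log2 fold change was -0.61, SE 0.26, in blood (adjusted p = 0.265) and 1.14, SE 0.26, in marrow (adjusted p = 0.239). Over the 16 plates the blood effect passed, with a log2 difference of -1.05, SE 0.24 (adjusted p = 0.00366), and the marrow effect did not, at 0.93, SE 0.24 (adjusted p = 0.112).

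Slc2a3 was also the carrier found in most cells, 1282 of 1421. To compare shares at equal depth, each cell was thinned to 5000 UMIs. A UMI of Slc2a3 was then present in 86.3% ± 0.667 (SD, n = 2) of BM LPS cells, 54.6% ± 7.34 of BM PBS cells, 56.8% ± 3.0 of PB PBS cells and 35.0% ± 0.199 of PB LPS cells. Without thinning the means were 99.5%, 88.4%, 86.8% and 77.35% in that order. The level and the share of cells thus ranked BM LPS first and PB LPS last. In the TMM-scaled level and the thinned share, both PB PBS samples of batch 7 lay between the 2 BM PBS samples. With library size alone, PB PBS lay above BM PBS there, at 577 and 619 against 343 and 443 CPM.

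Slc2a6 encodes GLUT6, a glucose transporter of intracellular membranes, at chr2:26876883-26883518 of mm9 on the minus strand. It measured 265 and 207.5 CPM in PB PBS, 466 and 300.4 CPM in PB LPS, 56.8 and 101 CPM in BM PBS and 103.5 and 106 CPM in BM LPS. On the plates of batch 6 it measured 166 and 116 CPM in PB PBS, 176 and 233 CPM in PB LPS, 50.4, 51.2 and 54.3 CPM in BM PBS and 86.3 CPM in BM LPS. All blood plates thus lay above all marrow plates of the same treatment and batch. After LPS the log2 difference between blood and marrow was 1.87, SE 0.41 (adjusted p = 0.0294), over the 8 samples and 1.61, SE 0.35 (adjusted p = 0.00345), over the 16 plates, where it passed without each plate and was lost with library size alone (log2 difference 1.05, adjusted p = 0.0688). The call over the 8 samples was lost with library size alone (log2 difference 1.30, adjusted p = 0.137), and without PB PBS replicate 1 or 2, PB LPS replicate 1, or BM LPS replicate 1 or 2, where adjusted p ranged from 0.0558 to 0.24. Between the resting groups the difference was 1.59, SE 0.41 (adjusted p = 0.0756), over the 8 samples, and a log2 difference of 1.55, SE 0.29 (adjusted p = 0.000845) over the 16 plates, where it passed without each plate. PB LPS lay above PB PBS without overlap in both batches on the TMM scale, at adjusted p = 0.403 over the 8 samples, and this direction turned with library size alone, where the log2 fold change over the 16 plates was -0.38. In thinned cells the share with a UMI was 39.7% ± 6.76 (SD, n = 2) in PB PBS, 40.1% ± 2.39 in PB LPS, 15.6% ± 10.2 in BM PBS and 20.2% ± 3.71 in BM LPS. Unthinned, the shares were 79.9%, 81.4%, 48.9% and 70.0%.

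Slc2a1, the gene of the widespread glucose transporter GLUT1, measured 46.9 and 36.8 CPM in PB PBS and 163.5 and 194.6 CPM in PB LPS of batch 7, and 35.6 and 29.3 CPM in PB PBS and 64.4 and 173 CPM in PB LPS in batch 6. In marrow it measured 17.3 and 36.4 CPM after PBS and 97.2 and 64.0 CPM after LPS, and 0.758, 26.4 and 30.9 CPM in BM PBS and 71.4 CPM in BM LPS in batch 6. Every LPS plate was above every PBS plate of its compartment and batch. The log2 fold change over the 8 samples was 2.10, SE 0.58 (adjusted p = 0.0819), in blood and 1.58, SE 0.57 (adjusted p = 0.608), in marrow, and over the 16 plates 1.94, SE 0.64 (adjusted p = 0.0542), and 1.70, SE 0.63 (adjusted p = 0.373). It passed in none of these. With library size alone, the blood groups overlapped in batch 6.

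**Figure D3:**
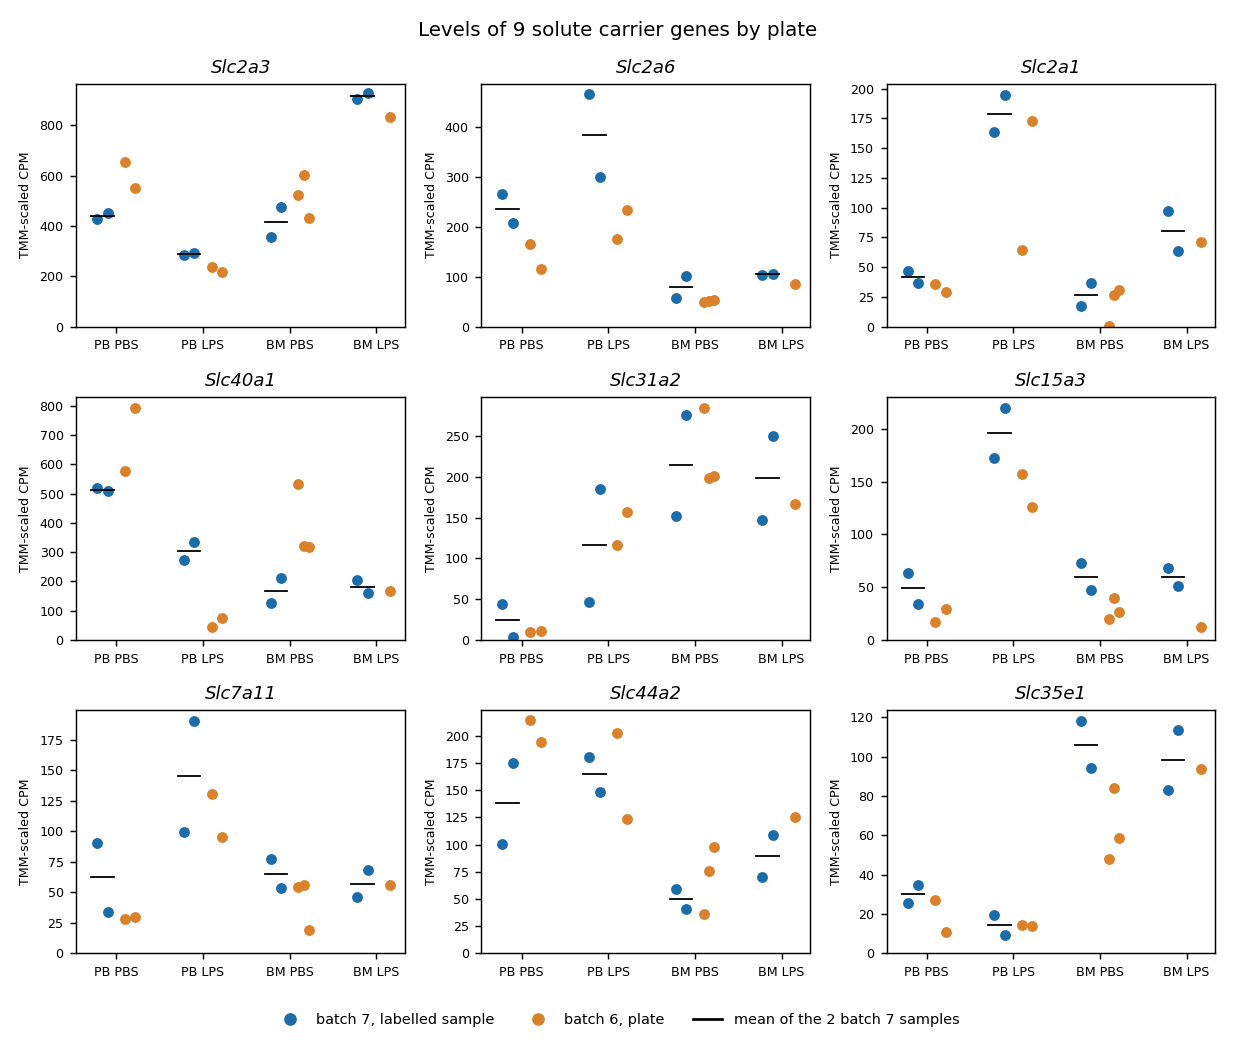
TMM-scaled CPM (vertical axis) of 9 carriers by group, 1 point a plate (blue, labelled samples of batch 7, orange, plates of batch 6), with a line at the mean of the 2 batch 7 samples. Slc2a3 lies at 833 CPM or above on each BM LPS plate and at 293 CPM or below on each PB LPS plate, and Slc35e1 is lower on each blood plate than on each marrow plate of the same treatment.

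Slc40a1 encodes ferroportin, the one known cellular iron exporter, at chr1:45964915-45982439 of mm9. It measured 521 and 507.5 CPM in PB PBS and 127 and 211 CPM in BM PBS, and 275 and 334 CPM in PB LPS and 205 and 159 CPM in BM LPS. On the batch 6 plates it measured 577 and 793 CPM in PB PBS, 535, 319.6 and 317 CPM in BM PBS, 44.1 and 76.0 CPM in PB LPS and 167 CPM in BM LPS. In both batches PB PBS lay highest, without overlap with any other group. The batches differed for the rest, with BM PBS at the level of BM LPS in batch 7 and above it in batch 6, and PB LPS above the marrow groups in batch 7 and below them in batch 6.

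Resting blood neutrophils exceeded resting marrow neutrophils in Slc40a1 by a log2 difference of 1.61, SE 0.34 (adjusted p = 0.0327), over the 8 samples. The call was lost over the 16 plates (log2 difference 1.02, adjusted p = 0.167) and without PB PBS replicate 1 (adjusted p = 0.137), PB PBS replicate 2 (0.146), BM PBS replicate 1 (0.169) or BM LPS replicate 1 (0.0528). PB LPS lay below PB PBS over the 16 plates, with a log2 difference of -1.82, SE 0.49 (adjusted p = 0.0158), and this was lost without PB LPS plate 1 (adjusted p = 0.0667) or plate 2 (0.0831) of batch 6. Over the 8 samples this log2 difference was -0.756 and did not pass. In thinned cells a UMI was seen in 64.65% ± 7.56 (SD, n = 2) of PB PBS cells, 29.95% ± 0.398 of PB LPS cells, 18.8% ± 2.68 of BM PBS cells and 29.0% ± 0.997 of BM LPS cells. Unthinned, the shares were 92.55%, 63.8%, 60.4% and 68.9%. The higher sum of PB PBS thus went with more cells holding a UMI.

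**Figure D4:**
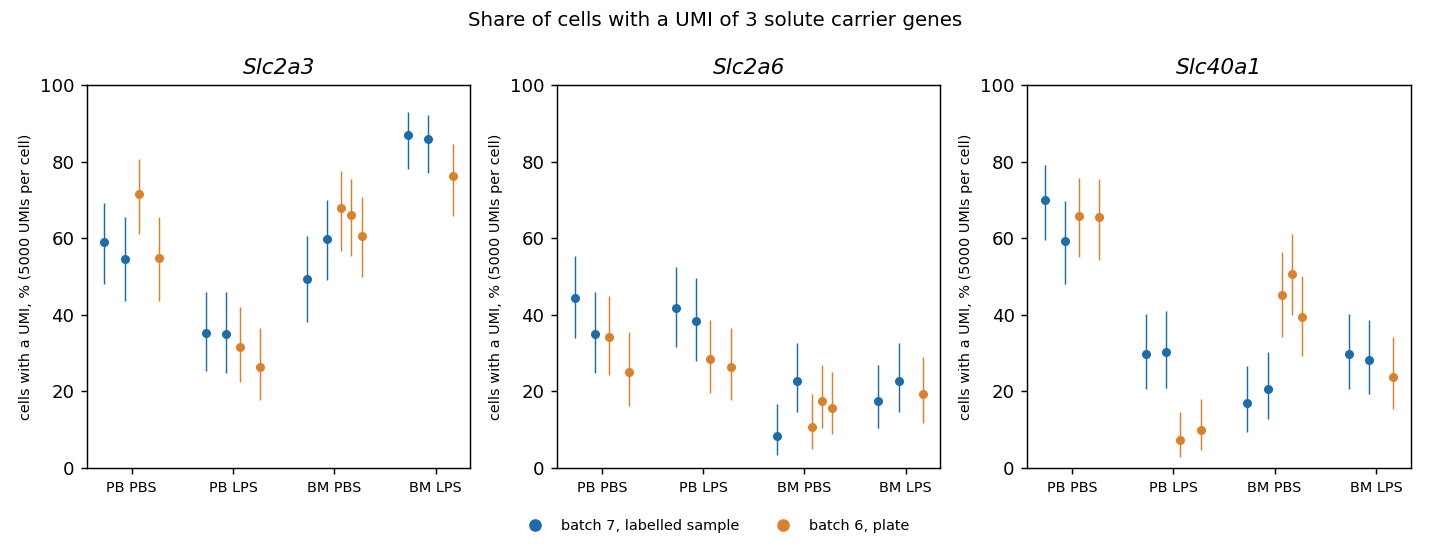
Percent of cells (vertical axis) holding a UMI of Slc2a3, Slc2a6 or Slc40a1 after each cell was thinned to 5000 UMIs, 1 point a plate with its exact 95% binomial interval, which covers counting error only. Slc2a3 lies between 76.1 and 86.8% on the BM LPS plates and between 26.4 and 35.2% on the PB LPS plates.

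Among the other metal carriers, Slc31a2 was lowest in resting blood neutrophils. It encodes CTR2, a relative of the copper importer CTR1 found on endosomes and lysosomes. It measured 44.6 and 4.06 CPM in PB PBS, 46.8 and 186 CPM in PB LPS, 153 and 276 CPM in BM PBS and 147 and 251 CPM in BM LPS, and 9.24 and 11.5 CPM in PB PBS, 117 and 158 CPM in PB LPS, 284, 199 and 201.5 CPM in BM PBS and 167 CPM in BM LPS on the plates of batch 6. PB PBS was lowest in both batches, and PB LPS, at its lowest 46.8 CPM against a PB PBS maximum of 44.6 CPM, came close to overlap in batch 7 and overlapped PB PBS there with library size alone. Over the 16 plates PB PBS differed from BM PBS by a log2 difference of -3.72, SE 0.56 (adjusted p = 5.23e-05), and PB LPS from PB PBS by a log2 difference of 2.88, SE 0.55 (adjusted p = 0.000604), both passing without each plate. Over the 8 samples the adjusted p was 0.145 and 0.261. The difference of both LPS effects passed over the 16 plates at 3.21, SE 0.78 (adjusted p = 0.0193), and was lost without PB LPS replicate 2, BM LPS replicate 1, PB PBS plate 1 of batch 6, BM PBS plate 2 of batch 6 or the BM LPS plate of batch 6 (adjusted p 0.0511 to 0.0707), and with library size alone (0.0891). Its UMIs were uneven over cells, as the top 2 cells carried 74.4 to 91.4% of the UMIs on the PB PBS plates and 19.3 to 67.3% on the BM PBS plates.

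The copper importer Slc31a1 stayed at or below 27.9 CPM. Nramp1 (Slc11a1), which pumps divalent metals out of phagosomes, measured 96.5 and 132 CPM in PB PBS, 174 and 281 CPM in PB LPS, 103 and 127.5 CPM in BM PBS and 78.6 and 165 CPM in BM LPS. PB LPS lay above BM LPS in both batches without overlap on the TMM scale, at adjusted p = 0.348 over the 8 samples, and overlapped it in batch 7 with library size alone. Mitoferrin 1 (Slc25a37), which brings iron into mitochondria, was lower in PB PBS (76.1 and 58.2 CPM) than in BM PBS (137 and 154 CPM) without overlap in both batches, with adjusted p = 0.232. With library size alone its groups overlapped. It was also lower in BM LPS than in BM PBS without overlap in both batches, again on the TMM scale only.

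Of the zinc carriers, Slc39a7 (ZIP7, which releases zinc from the endoplasmic reticulum and Golgi) measured 43.3 and 72.6 CPM in PB PBS and 13.4 and 9.80 CPM in PB LPS, and 48.5 and 32.8 CPM in PB PBS and 7.52 and 1.33 CPM in PB LPS in batch 6. It was lower after LPS over the 16 plates, with a log2 difference of -2.83, SE 0.81 (adjusted p = 0.0249), a call lost without PB PBS replicate 2, PB LPS replicate 2, PB PBS plate 1 of batch 6 or PB LPS plate 2 of batch 6 (adjusted p 0.05 to 0.0688). Slc39a11 (ZIP11) was almost absent from PB LPS, with 0 UMIs in the 2 samples of batch 7 and 3 UMIs on the 2 plates of batch 6, against 10.7 and 28.1 CPM in the BM LPS samples and 36.1 CPM on the BM LPS plate. Against a floor of 3 counts over the group (0.339 CPM), BM LPS of batch 7 was at least 57.7-fold higher. The difference passed over the 16 plates (adjusted p = 0.0018) and without each plate. It did not pass over the 8 samples (adjusted p = 0.0691). In PB PBS it was low too, with 10 and 25 UMIs in the samples of batch 7, of which 0 and 21 lay in cells past the limit for markers of other cell types, and 33 and 0 UMIs on the plates of batch 6. Against PB PBS it was lower over the 16 plates, with a log2 difference of -4.65, SE 1.38 (adjusted p = 0.0308), a call lost without PB PBS replicate 2, PB LPS replicate 1, PB LPS replicate 2, PB PBS plate 1 of batch 6, PB LPS plate 2 of batch 6 or BM PBS plate 1 of batch 6 (adjusted p 0.0541 to 0.0827). The gene overlaps Cog1 and Sstr2 in the mm9 annotation, and the counting strand is not given in the sources used here.

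Of 15 genes for carrier partners and metal handling, all of them tested, the iron store Fth1 passed in 4 of the 5 comparisons over the 8 samples. It measured 5797 and 6069 CPM in PB PBS and 48051 and 47968 CPM in PB LPS, with a log2 fold change of 3.02, SE 0.14 (adjusted p = 5.77e-07), and 4100.4 and 3337 CPM and 3663 and 3263 CPM in the marrow groups. Near-identical copies of the ferritin genes exist in the genome, so these levels are uncertain. The metalloreductase Steap4 was higher in PB PBS than in BM PBS (adjusted p = 0.00413), at 124 and 114 against 0 and 0.644 CPM. Txnip, whose product binds glucose carriers and draws them off the surface, was higher in PB LPS than in BM LPS, at 1553 and 1428 against 289 and 115 CPM, a log2 difference of 2.89, SE 0.41 (adjusted p = 0.00244). The numbers past the threshold were 1 higher and 0 lower for LPS in blood, 0 and 0 for LPS in marrow, 3 and 0 for PB PBS against BM PBS, 4 and 0 for PB LPS against BM LPS, and 1 and 0 for the difference of LPS effects. Of all genes, 3.94%, 0.0708%, 2.61%, 3.73% and 1.5% passed. For the 16 plates the numbers were 2 higher and 1 lower, 0 and 1, 3 and 2, 4 and 2, and 2 and 0, in the same order, where 9.97%, 0.418%, 7.73%, 5.87% and 3.35% of all genes passed. The lower ones were Emb, a partner of lactate carriers, for LPS in blood, Txnip for LPS in marrow, and the glycolytic enzyme genes Hk3 and Ldha in both comparisons of blood with marrow. For the median log2 fold change over the 8 samples the list had -0.01, -0.17, 0.36, 0.57 and 0.14 in these comparisons, beside -0.11, 0, 0.15, -0.07 and -0.17 over all genes. Over the 16 plates the list had 0.47, -0.26, 0.43, 0.70 and 0.26, beside -0.22, -0.04, 0.16, -0.08 and -0.15 over all genes.

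Slc7a11, the light chain xCT of the cystine-glutamate exchanger, and Slc3a2, the heavy chain 4F2hc that carries it to the surface, were both higher in PB LPS than in PB PBS and BM LPS without overlap in both batches on the TMM scale. Slc7a11 measured 90.3 and 34.1 CPM in PB PBS, 99.3 and 191 CPM in PB LPS and 45.9 and 68.0 CPM in BM LPS, and 28.0 and 29.7 CPM in PB PBS, 130.4 and 95.6 CPM in PB LPS and 55.7 CPM in BM LPS in batch 6. In blood the LPS difference passed over the 16 plates, with a log2 difference of 1.53, SE 0.47 (adjusted p = 0.0393), and was lost without PB PBS replicate 2, PB LPS replicate 2, BM LPS replicate 2, PB PBS plate 1 of batch 6, PB PBS plate 2 of batch 6, PB LPS plate 1 of batch 6 or PB LPS plate 2 of batch 6 (adjusted p 0.0533 to 0.113) and with library size alone (log2 fold change 0.56, adjusted p = 0.431). Slc3a2 measured 46.4 and 32.0 CPM in PB PBS and 55.4 and 70.6 CPM in PB LPS, and 20.6 and 31.9 CPM in PB PBS and 115 and 78.2 CPM in PB LPS in batch 6. Its difference did not pass in either model (adjusted p = 0.735 and 0.177), and over the 8 samples its direction turned with library size alone. Slc7a5, the large neutral amino acid carrier that also pairs with Slc3a2, stayed at or below 24.9 CPM.

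Slc15a3 encodes PHT2, which moves histidine and small peptides, among them bacterial wall fragments, out of endosomes and lysosomes. It measured 63.9 and 34.3 CPM in PB PBS, 172 and 220.0 CPM in PB LPS, 72.8 and 47.2 CPM in BM PBS and 67.9 and 50.8 CPM in BM LPS. The plates of batch 6 held 16.6 and 29.3 CPM in PB PBS, 157 and 126 CPM in PB LPS, 19.5, 40.2 and 26.5 CPM in BM PBS and 12.4 CPM in BM LPS. PB LPS lay above the 3 other groups in both batches, also with library size alone for its comparisons with PB PBS and BM LPS. The LPS difference in blood was a log2 difference of 2.30, SE 0.47 (adjusted p = 0.00136) over the 16 plates, passing without each plate, and 2.00, SE 0.55 (adjusted p = 0.0776), over the 8 samples. The gap to BM LPS was a log2 difference of 2.35, SE 0.53 (adjusted p = 0.00587) over the 16 plates and was lost without the BM LPS plate of batch 6 (adjusted p = 0.0751) and with library size alone (0.0519). The difference of both LPS effects passed over the 16 plates at 2.62, SE 0.68 (adjusted p = 0.0307), and was lost without PB LPS replicate 2, BM PBS replicate 1, BM LPS replicate 2, PB PBS plate 1 of batch 6, PB LPS plate 1 of batch 6 or the BM LPS plate of batch 6 (adjusted p 0.0532 to 0.131), and with library size alone (0.183). The gene overlaps Tmem132a in the annotation. Its relative Slc15a4 stayed at or below 59.8 CPM.

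Of other amino acid carriers, Slc43a2 (LAT4) was lower in PB LPS (6.06 and 0 CPM) than in PB PBS (102.4 and 26.6 CPM), and in batch 6 (4.41 and 0 against 58.1 and 54.5 CPM), with a log2 difference of -4.62, SE 1.35 (adjusted p = 0.0282) over the 16 plates. This was lost without PB PBS replicate 1, PB LPS replicate 2, PB PBS plate 1 of batch 6, PB PBS plate 2 of batch 6, PB LPS plate 2 of batch 6 or BM PBS plate 2 of batch 6 (adjusted p 0.0502 to 0.0696). Of its UMIs, 1.30 and 49.2% in the PB PBS samples and 40.9 and 1.54% on the PB PBS plates of batch 6 lay in cells past the limit for markers of other cell types, without which it passed over the 16 plates (log2 difference -4.61, adjusted p = 0.0322). The abundant taurine carrier Slc6a6 ranged from 208 to 408 CPM over the 16 plates and Slc38a2 from 72.3 to 254.5 CPM. Neither passed in any comparison over the 8 samples or the 16 plates.

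The 250 bases upstream of the RefSeq start site were read for 8 of the 10 carriers that were higher in PB LPS than in PB PBS in both batches, the others being Slc15a3 and Slc45a4. Of these, 3 are shown here because they differ in the motifs they hold. RefSeq on GRCm38 gave 176 promoters for 129 of the 169 carriers, and each sequence shown was found exactly once on its mm9 chromosome, which gave the coordinates. Bases in lower case run 5′ to 3′ on the gene's strand and end just before the start site. Capitals mark a match to 1 of 7 motifs searched on both strands, namely the NF-kB consensus, the C/EBP motif TTGCNNAA, the STAT site GAS (TTCNNNGAA), the antioxidant response element core TGACNNNGC, the amino acid response element TGATGNAA, the E-box CACGTG and the HIF core ACGTG, which lies inside the E-box.
Slc2a6, chr2:26883519-26883768, minus strand: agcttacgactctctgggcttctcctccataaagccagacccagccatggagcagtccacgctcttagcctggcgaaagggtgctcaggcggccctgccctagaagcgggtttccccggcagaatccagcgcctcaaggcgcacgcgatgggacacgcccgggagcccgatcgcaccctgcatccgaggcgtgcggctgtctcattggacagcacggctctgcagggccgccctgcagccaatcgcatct
Slc7a11, chr3:50247536-50247785, minus strand: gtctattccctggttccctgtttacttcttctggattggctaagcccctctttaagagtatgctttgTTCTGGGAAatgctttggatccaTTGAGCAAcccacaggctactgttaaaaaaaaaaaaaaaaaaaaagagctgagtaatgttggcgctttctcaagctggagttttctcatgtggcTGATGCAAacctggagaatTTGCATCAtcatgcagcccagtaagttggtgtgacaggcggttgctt
Slc31a2, chr4:61947213-61947462, plus strand: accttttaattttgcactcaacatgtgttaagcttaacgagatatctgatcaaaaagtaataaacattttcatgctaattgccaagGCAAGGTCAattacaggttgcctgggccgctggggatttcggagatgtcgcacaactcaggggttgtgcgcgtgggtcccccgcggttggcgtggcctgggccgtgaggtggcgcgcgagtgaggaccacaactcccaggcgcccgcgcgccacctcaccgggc

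The Slc7a11 promoter held the amino acid response element at positions -66 to -59 and, on the other strand, at -47 to -40, a C/EBP match at -160 to -153 and a GAS match at -183 to -175. The Slc31a2 window, which lies inside the span of the gene in the mm9 annotation and not before its start, held the antioxidant response element core at -164 to -156. None of these letters were found in the Slc2a6 window. Among all 32851 RefSeq promoters of this length, 3.45% held the amino acid response element, 9.56% the C/EBP motif, 7.02% GAS, 10.2% the antioxidant response element core, 6.02% the E-box, 16.6% the HIF core and 3.90% the NF-kB consensus. Among the 176 carrier promoters the shares were 3.41%, 9.09%, 6.82%, 13.1%, 11.9%, 22.7% and 7.39%. Matches are descriptions of sequence and show no binding.

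Of the mitochondrial carriers, Slc25a22, which brings glutamate into mitochondria, stood out in PB LPS. It measured 90.1 and 58.8 CPM in the PB LPS samples and at most 10.1 CPM in the samples of the 3 other groups. In batch 6 the PB LPS plates held 113 and 38.6 CPM and the other plates at most 22.9 CPM. Against PB PBS the difference passed over the 16 plates, with a log2 difference of 5.45, SE 1.69 (adjusted p = 0.0393). It was lost without PB PBS replicate 1, PB PBS replicate 2, PB LPS replicate 1, PB LPS replicate 2, PB PBS plate 1 of batch 6 or PB LPS plate 1 of batch 6 (adjusted p 0.0598 to 0.112) and with library size alone (adjusted p = 0.0728), and over the 8 samples it had adjusted p = 0.0665. On each plate the top 2 cells carried 17.7 to 62.9% of its UMIs in PB LPS, taking both batches.

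Slc25a5, the adenine nucleotide carrier ANT2, was lower in PB LPS, at 115 and 97.5 against 300.5 and 187 CPM in PB PBS, and at 82.7 and 34.2 against 243 and 333.5 CPM in batch 6. The difference was a log2 difference of -1.80, SE 0.38 (adjusted p = 0.00212) over the 16 plates, passing without each plate, and -1.20, SE 0.41 (adjusted p = 0.171), over the 8 samples. Cells past the limit for markers of other cell types held 21.2 and 25.7% of its UMIs in the PB PBS samples and 41.0 and 11.6% on the PB PBS plates of batch 6, more than their 12.7, 12.6, 27.5 and 7.79% of all UMIs there. Without these cells it passed over the 16 plates, with a log2 difference of -1.77 (adjusted p = 0.0075). Near-identical processed copies of this gene exist in the genome and only uniquely mapped reads were counted, so its level is uncertain. The aspartate-glutamate carrier Slc25a12 was higher in PB LPS than in PB PBS and BM LPS without overlap in both batches, on the TMM scale only. Between both LPS groups, Slc25a20 (acylcarnitine) was higher in PB LPS, again on the TMM scale only, and Slc25a11 (oxoglutarate and malate) and Slc25a24 (ATP-Mg and phosphate) were lower. Their adjusted p over the 8 samples lay between 0.268 and 0.506, and none passed over the 16 plates. The phosphate carrier Slc25a3 measured 44.9 to 202 CPM with no call.

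Slc35e1, an orphan relative of the sugar phosphate and nucleotide sugar carriers, was lower in blood than in marrow under either treatment. It measured 25.7 and 34.5 CPM in PB PBS, 19.4 and 9.07 CPM in PB LPS, 118 and 94.0 CPM in BM PBS and 82.9 and 113.6 CPM in BM LPS, and 27.2 and 10.9 CPM in PB PBS, 14.4 and 13.8 CPM in PB LPS, 48.0, 84.2 and 58.4 CPM in BM PBS and 93.5 CPM in BM LPS in batch 6. After LPS the difference was a log2 difference of -2.70, SE 0.55 (adjusted p = 0.00226) over the 16 plates, passing without each plate, and -2.78, SE 0.68 (adjusted p = 0.0509), over the 8 samples. Between the resting groups it was a log2 difference of -1.71, SE 0.49 (adjusted p = 0.0324) over the 16 plates, lost without PB PBS replicate 1, BM PBS replicate 1, BM PBS replicate 2, BM LPS replicate 2, PB PBS plate 2 of batch 6 or BM PBS plate 2 of batch 6 (adjusted p 0.0546 to 0.0987), with library size alone (adjusted p = 0.13) and without the cells that held markers of other cell types (adjusted p = 0.0786).

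Slc35d2, which carries nucleotide sugars into the Golgi, was lower in PB LPS (1.88 and 1.23 CPM) than in PB PBS (13.6 and 64.5 CPM) and BM LPS (50.7 and 29.5 CPM), and the plates of batch 6 held 9.21 and 0.884 CPM in PB LPS, 34.5 and 35.5 CPM in PB PBS and 28.2 CPM in BM LPS. Over the 16 plates the LPS difference in blood was a log2 difference of -3.63, SE 0.91 (adjusted p = 0.00928), passing without each plate, and the gap to BM LPS was a log2 difference of -3.62, SE 0.96 (adjusted p = 0.0218), lost without PB LPS replicate 1, PB LPS replicate 2 or BM LPS replicate 1 (adjusted p 0.0691 to 0.087). The top 2 cells carried 43.4 to 97.2% of its UMIs on the PB PBS plates. The related Slc35c2 was lower in PB LPS than in PB PBS without overlap in both batches, at adjusted p = 0.731 over the 8 samples.

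Of the remaining carriers, Slc44a2, a choline transporter-like protein of the neutrophil surface, measured 101 and 175 CPM in PB PBS and 59.2 and 40.5 CPM in BM PBS, and 215 and 194 CPM in PB PBS and 36.0, 75.5 and 97.5 CPM in BM PBS in batch 6. Resting blood exceeded resting marrow by a log2 difference of 1.54, SE 0.34 (adjusted p = 0.00462) over the 16 plates, passing without each plate. Over the 8 samples the adjusted p was 0.193. Slc17a9, which loads ATP into secretory vesicles, was lower in PB PBS (0 and 2.03 CPM) than in BM PBS (24.0 and 41.2 CPM), and in batch 6 (0.136 and 0.280 against 76.7, 45.1 and 49.6 CPM). It passed over the 16 plates, with a log2 difference of -6.02, SE 1.53 (adjusted p = 0.0138), and was lost without PB PBS plate 1 (adjusted p = 0.0523) or plate 2 (0.0505) of batch 6.

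The scaffold gene Slc9a3r1 measured 124 and 125 CPM in PB PBS and 228 and 264 CPM in PB LPS, and 33.7 and 108 CPM in PB PBS and 251 and 234 CPM in PB LPS in batch 6. The difference was a log2 difference of 1.32, SE 0.38 (adjusted p = 0.0251) over the 16 plates, lost without PB PBS plate 1 of batch 6, PB LPS plate 1 of batch 6 or PB LPS plate 2 of batch 6 (adjusted p 0.0501 to 0.0848) and with library size alone (log2 fold change 0.39, adjusted p = 0.483). The lactate exporter Slc16a3 (MCT4) was higher in PB LPS than in BM LPS without overlap in both batches, at 191 and 352 against 170.2 and 154 CPM. Its adjusted p was 0.436 over the 8 samples, and its direction over the 16 plates turned with library size alone (log2 difference -0.03, against 0.55). The gene overlaps Csnk1d.

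The anion carrier Slc26a11, chosen like Slc38a1, Slc6a4 and Slc7a1 after its values were seen because it passed over the 16 plates, had 0 UMIs in the 2 BM LPS samples and 2 UMIs on the BM LPS plate, against 149 UMIs in the BM PBS samples and 676 on the BM PBS plates. Against a floor of 3 counts over the group (0.174 CPM), BM PBS of batch 7 was at least 59.0-fold higher. It was the 1 carrier that passed for LPS in marrow over the 16 plates (adjusted p = 0.0191), and it was lost without BM LPS replicate 1 (adjusted p = 0.119), replicate 2 (0.127) or the BM LPS plate of batch 6 (0.0953). PB LPS exceeded BM LPS over the 16 plates (adjusted p = 0.0051), without each plate as well. In batch 7, however, PB LPS itself was low, with 33 UMIs over both samples (3.72 CPM), and in batch 6 it held 328 UMIs (22.6 CPM). The 2 highest cells of each BM PBS plate held 88.7 to 100% of its UMIs there, so that its sums rest on few cells.

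Several carriers were counted mainly in PB PBS, whose plates also held the markers of other cell types. The amino acid carrier Slc38a1 had 279 and 148 UMIs on the PB PBS plates of batch 6, of which 261 and 145 lay in cells past the limit for markers of other cell types. In the PB PBS samples of batch 7 it had 126 UMIs and 1 UMI, and the 126 lay outside such cells. Slc6a4, the serotonin transporter that is prominent in platelets, had 66 and 136 UMIs on the PB PBS plates of batch 6, 16 and 0 of them in such cells, and 0 UMIs in BM PBS of either batch. In the PB PBS samples of batch 7 it had 0 and 7 UMIs, the 7 in such cells, so that its difference rests on batch 6. Both count among the 7 carriers that passed for PB PBS against BM PBS over the 16 plates, but they met the filter on low counts only through PB PBS, so that they had to differ and their calls support nothing. Each was dropped by that filter without any 1 of 3 PB PBS plates and also once those cells were left out, and was then not tested. In the 13 fits that kept it, Slc6a4 lost its call without BM PBS replicate 1, BM PBS replicate 2, PB LPS plate 1 of batch 6, BM PBS plate 1 of batch 6, BM PBS plate 2 of batch 6 or BM PBS plate 3 of batch 6 (adjusted p 0.0501 to 0.0729). The part of other cells in these values was not tested beyond this. The arginine carrier Slc7a1 had 161 and 220 UMIs on the PB PBS plates of batch 6, 157 and 1 of them in such cells, and 0 UMIs in both PB PBS samples of batch 7. It passed for the difference of LPS effects over the 16 plates (adjusted p = 0.0453) and lost it without any 1 of 14 plates, that is each but BM PBS plate 1 and the BM LPS plate of batch 6 (adjusted p 0.0544 to 0.475), and without the cells past the marker limit (0.0646).

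Further carriers separated in both batches on the TMM scale without passing either model in that comparison. Slc25a5, lower, and Slc9a3r1, higher, did so for PB LPS against BM LPS. In blood after LPS they were Slc45a4, higher, and the phosphate carrier Slc20a1, lower. In batch 6 the nearest plates of Slc20a1 held 6 UMIs (0.841 CPM) in PB PBS and 5 UMIs (0.736 CPM) in PB LPS, close to overlap. In marrow after LPS they were Slc6a6, Slc35f5 and Slc44a2, higher. Slc39a11 was lower in PB PBS than in BM PBS, and Slc35c2, Slc39a7 and Slc6a6 were higher. Between both LPS groups, Slc45a4 was higher in PB LPS, and Slc10a3 was lower. Of 30 carriers listed for known roles in phagocytes, 26 were members. Among these, the monocarboxylate carrier Slc16a1, the zinc carriers Slc39a14 and Slc30a1, the nucleoside carrier Slc29a1, the glutamine carrier Slc1a5 and the sugar phosphate carrier Slc37a2 had few UMIs, with maxima over the 16 plates of 3.31, 1.77, 11.4, 7.83, 30.4 and 18.6 CPM. The nucleoside carrier Slc28a2 ranged from 28.6 to 127 CPM with no call.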

How the data were processed

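The authors trimmed reads with Cutadapt 1.15, aligned them to mm9 with STAR 2.6.0a, counted uniquely mapped reads by gene with HTSeq 0.11.2 and deposited 1 table of raw UMI counts for 1421 cells that had passed their quality filters. The gene annotation and the counting strand are not given in the sources used here.

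From these, UMIs were summed by plate. Columns of batch 7 map to the 8 labelled samples, 2 in each of 4 groups. Whether these came from separate mice is not stated, so p-values measure only the spread between these samples. Batch 6 has 8 plates with a group in their names and no labelled sample. edgeR 4.0.16 (R 4.3.3) fitted 1 quasi-likelihood model of 4 groups with TMM factors to 8478 genes kept by filterByExpr, two-sided, with Benjamini-Hochberg adjustment over all genes and a threshold of 0.05. The model over 16 plates, with batch as a term, held 8845 genes. Separation without overlap needed at least 20 CPM in the higher group in each batch. Carriers were named where they passed over the 8 samples or separated in both batches (up to 15 a direction each), had 1 of the 10 highest means, or stood on a list of 30 with known roles. Some carriers that met this rule are not reported here. The members and lists were chosen with earlier results of these data known. Alternatives were DESeq2 1.42.0, library size alone, no filter, thinned cells, a replicate block and leaving out samples, plates or cells. The leaving out of each plate, of cells with markers of other cell types, and library size in the model over 16 plates were chosen after seeing the data.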

Additional observations from a re-analysis of the deposited data

Results flagged for a closer look

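Slc2a3 was picked out because its LPS difference differed between blood and marrow. The test of the difference of both LPS effects in edgeR gave -1.75 on the log2 scale (adjusted p = 0.0406), with the lower value in both PB LPS samples than in both PB PBS samples and the higher value in both BM LPS samples than in both BM PBS samples. Without single samples the adjusted p lay between 0.0335 and 0.212.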

How the results depend on the processing

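The number of carriers past the threshold depended on the tool and on the samples. With DESeq2 it was 14 for LPS in blood, 5 for LPS in marrow, 12 for PB PBS against BM PBS, 13 for PB LPS against BM LPS and 3 for the difference of LPS effects, where edgeR gave 0, 0, 1, 2 and 1, and over the 16 plates it was 12, 1, 7, 7 and 4. DESeq2 called 15.5%, 2.9%, 13.2%, 13.1% and 6.8% of all genes in these comparisons. Library size alone gave 4 for LPS in blood and 2 for PB PBS against BM PBS, and over the 16 plates 22, 11 for that same pair and 7 for the difference of LPS effects, where 4.81% and 3.5%, and 19.1%, 10.8% and 6.27%, of all genes passed. Thinned cells gave 3 for LPS in blood, 2 for PB PBS against BM PBS and 0 for the difference of LPS effects (6.48%, 5.79% and 2.4% of all genes). Leaving out the 2 highest cells of each gene and sample gave 2, 3 and 4 for LPS in blood, PB PBS against BM PBS and PB LPS against BM LPS (6.02%, 5.5% and 8.02% of all genes). Leaving out each sample gave 0 to 1, 0 to 1, 0 to 4, 1 to 3 and 0 to 2 carriers for the 5 comparisons in the order above, and leaving out each of the 16 plates 6 to 12, 0 to 1, 4 to 7, 6 to 9 and 1 to 4. Of all genes, 1.61 to 4.36%, 0.0221 to 0.305%, 1.19 to 3.71%, 1.57 to 4.15% and 0.874 to 1.82% passed without each sample, and 7.97 to 10.2%, 0.15 to 0.49%, 5.82 to 8.14%, 3.67 to 6.05% and 1.87 to 3.33% without each plate. A group left with 1 sample was assumed to vary like the others. Carriers without overlap in both batches numbered 19 to 22 for LPS in blood, 10 to 15 for LPS in marrow, 13 to 17 for PB PBS against BM PBS and 19 to 27 for PB LPS against BM LPS when a sample was left out, which leaves fewer samples to overlap, beside 15.9 to 16.2%, 9.06 to 9.99%, 11.6 to 11.9% and 16.7 to 18.2% of all genes. For PB PBS against BM PBS they numbered 20 with library size alone (16 higher and 4 lower) and 7 at a minimum of 50 CPM, where 7.26% of all genes separated. The cause of the other changes was not tested.

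The log2 difference of Slc40a1 between PB PBS and BM PBS was 1.02 over the 16 plates (adjusted p = 0.167) and 1.28 to 2.03 without each sample. That of Slc2a6 between PB LPS and BM LPS was 1.30 with library size alone (adjusted p = 0.137) and 1.51 to 2.16 without each sample, and that of Slc2a3 was -1.69 to -1.64 without each sample. The difference of LPS effects on Slc2a3 was -1.53 with thinned cells (adjusted p = 0.0732) and -1.97 to -1.55 without each sample. Unthinned shares of cells with a UMI in PB PBS, PB LPS, BM PBS and BM LPS were 86.8%, 77.35%, 88.4% and 99.5% for Slc2a3, 79.9%, 81.4%, 48.9% and 70.0% for Slc2a6, and 92.55%, 63.8%, 60.4% and 68.9% for Slc40a1, above the thinned ones because thinning lowers the depth.

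Same-numbered samples of different groups deviated from their group means with correlations of -0.027 to 0.0052 across genes. Whether they share an animal is not stated. These correlations cannot decide it, since each mean rests on 2 samples and low counts add noise. With the number as a replicate block the counts were 0, 0, 1, 2 and 1 as without it, beside 4.41%, 0.153%, 3.01%, 4.16% and 1.82% of all genes. The 34 carriers with too few counts for the test, with means of at most 5.30 CPM, give no result over the 8 samples.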

Other observations

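Of 69 genes listed as other membrane transporters (symbols of ATP-driven pumps, ABC genes, aquaporins and organic anion carriers of the Slco family), 59 were tested over the 8 samples. They were taken by symbol and not checked against function, so some need not be membrane transporters. Atp6v0a1, a subunit of the proton pump that acidifies vesicles, was higher in PB LPS than in PB PBS, with a log2 fold change of 3.27, SE 0.75 (adjusted p = 0.0372 in edgeR). Slco3a1, an organic anion carrier, was higher in PB LPS than in BM LPS, with a log2 difference of 4.38, SE 0.91 (adjusted p = 0.0218). No other gene of the list passed in any of the 5 comparisons over the 8 samples, where 0.0708 to 3.94% of all genes passed. Over the 16 plates 61 were tested, and 6 were higher and 2 lower in PB LPS than in PB PBS, among the former Atp6v0a1, Slco3a1 and the lipid transporters Abca7 and Abca13, while Abcd2 and the calcium pump Atp2b1 were lower, and 9.97% of all genes passed. In PB PBS against BM PBS, 5 were higher, with the cholesterol exporter Abca1 and Atp2b1 among them, and Abca13 was lower, where 7.73% of all genes passed. Abcc3, also among the 5, stood at 0 CPM on every marrow plate and at most 0.627 CPM in PB LPS. It met the filter on low counts only through PB PBS, so its call supports nothing. In PB LPS against BM LPS, 3 were higher, namely Abca1, Abcg1 and Slco3a1, where 5.87% of all genes passed.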
